A study of Mus musculus with 32 samples.

Results

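The genes described here are 10 members of the circadian clock, chosen by name: Clock, Arntl, Npas2, Per1, Per2, Per3, Cry1, Nr1d1, Nr1d2 and Dbp. They are 10 of the 33253 genes named on the arrays, and 13 probes carry their names. All 10 had a probe that was well above background on all 32 arrays, so no member was lost to the filter on dim probes. RNA came from whole mouse lungs of 32 pups, 4 in each of 8 groups, and was read on one-colour microarrays. Pups of the C57Bl/6J strain were kept in 21% O2 (normoxia) or in 85% O2 (hyperoxia, the exposure that models bronchopulmonary dysplasia, an arrest of alveolar development) and were studied at post-natal day (P)5 or P14. Every pup also received an antimiR, an oligonucleotide that blocks a microRNA: either a scrambled control sequence or antimiR-34a, which is directed against miR-34a. The antimiRs were injected systemically, so no cell type or organ was singled out, and no group went without an injection. The pups of every group were wild-type. The study used both sexes, and the sex of a single array was not analysed here.

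The clock is a transcriptional loop that runs in nearly every cell. CLOCK or its relative NPAS2 pairs with ARNTL (also called BMAL1) and switches on genes that carry E-box motifs, among them the Period and Cryptochrome genes, whose proteins then repress that pair, and the nuclear receptors NR1D1 and NR1D2 (REV-ERB alpha and beta), which repress Arntl through RORE motifs. DBP, a transcription factor under direct control of the loop, acts at D-box motifs, where NFIL3 opposes it. In a running clock Dbp and Nr1d1 peak at about the time when Arntl is low, and Per1 also responds within minutes to glucocorticoids and other outside signals. The level of each of these genes therefore depends on the time of day. The time of day at which the lungs were taken was not given in the sources used here. A difference in that time between groups therefore cannot be told apart from oxygen, age or antimiR in any comparison below.

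The antimiR is aimed at the mature strand of miR-34a, shown here because it defines the second factor of the design. Its sequence in RefSeq (build GRCm38.p6) lies at chr4:150068473-150068494 on the plus strand, and the capitals mark the seed, bases 2 to 8 from the 5′ end.
mmu-miR-34a-5p: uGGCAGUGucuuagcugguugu

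RefSeq promoter windows of 300 bases (250 before and 50 after a transcription start, GRCm38.p6) were found for 9 of the 10 members, 13 windows in all. They were searched on both strands for the E-box CACGTG, the D-box TTACGTAA or TTATGTAA, the RORE TAGGTCA and the CRE TGACGTCA, of which none contains another. Windows of 4 members held a match. The 30 bases around each match are shown because the loop described above acts through motifs of these kinds. The motif is in capitals, and each sequence is given 5′ to 3′ on the strand of the gene. They lie at chr11:69098771-69098800 (plus strand) for Per1, chr10:85185097-85185126 (minus strand) for Cry1, chr4:151044852-151044881 and chr4:151044805-151044834 (minus strand) for Per3, and chr7:113207530-113207559 (plus strand) for Arntl.
Per1, E-box: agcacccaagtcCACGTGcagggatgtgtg
Cry1, E-box: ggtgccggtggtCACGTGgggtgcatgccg
Per3, upstream D-box: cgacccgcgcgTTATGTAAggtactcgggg
Per3, downstream D-box: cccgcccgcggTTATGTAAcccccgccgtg
Arntl, RORE: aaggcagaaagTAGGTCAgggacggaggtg

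The E-box was held by 7.15% of all 32817 promoter windows of this length, the D-box by 1.05%, the RORE by 2.61% and the CRE by 1.79%. Counted from the transcription start, the first base of the motif lies at -166 in Per1, at -60 in Cry1, at -205 and -158 in Per3 and at 30 in Arntl. The windows of Clock, Npas2, Nr1d1, Nr1d2 and Dbp held none of these letters. A match is only a match of letters and was not tested for binding. Sites outside these windows were not searched, so a window without a match does not show that a gene lacks such sites.

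A level is the log2 signal of a probe after the 75th percentile of its own array was subtracted, so 0 stands for a probe at that percentile and a difference of 1 for a doubling. They are compared within a probe and never between genes. A difference was called at a limma adjusted p under 0.05, where limma is a linear model fitted to all tested probes at once and the adjustment is Benjamini-Hochberg over all of them. The 4 slides each held 1 age and 1 oxygen level, so oxygen cannot be told apart from slide, and age cannot be told apart from slide. The labels give pentobarbital at P5 and isoflurane at P14, while the methods of the study name pentobarbital for both ages, so whether the anaesthetic also differed with age is not settled by these sources. Both antimiRs lay on the same slides, but always on different rows of them. In whole lung, fewer cells of a type and less RNA per cell cannot be told apart. All 6 lung markers (surfactant, alveolar, club cell and endothelial genes) were above background on every array. Arrays held 33614 to 40786 probes above background. Arrays were set apart where they lay over 1 from the median of their group in the mean log2 level of skeletal muscle genes or over 0.5 in overall brightness. Of the 32 arrays, 6 did so: 3 in muscle genes, by 1.39 to 5.58, and 3 in brightness, by 0.58 to 0.79 in either direction. Other tissue markers were not part of this rule, and arrays that it kept differed in them, such as normoxic antimiR-34a mice at P14, with replicate 3 at -2.93 in adipocyte and replicate 4 at 2.61 in atrial markers from the median of the group.

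**Figure D1:**
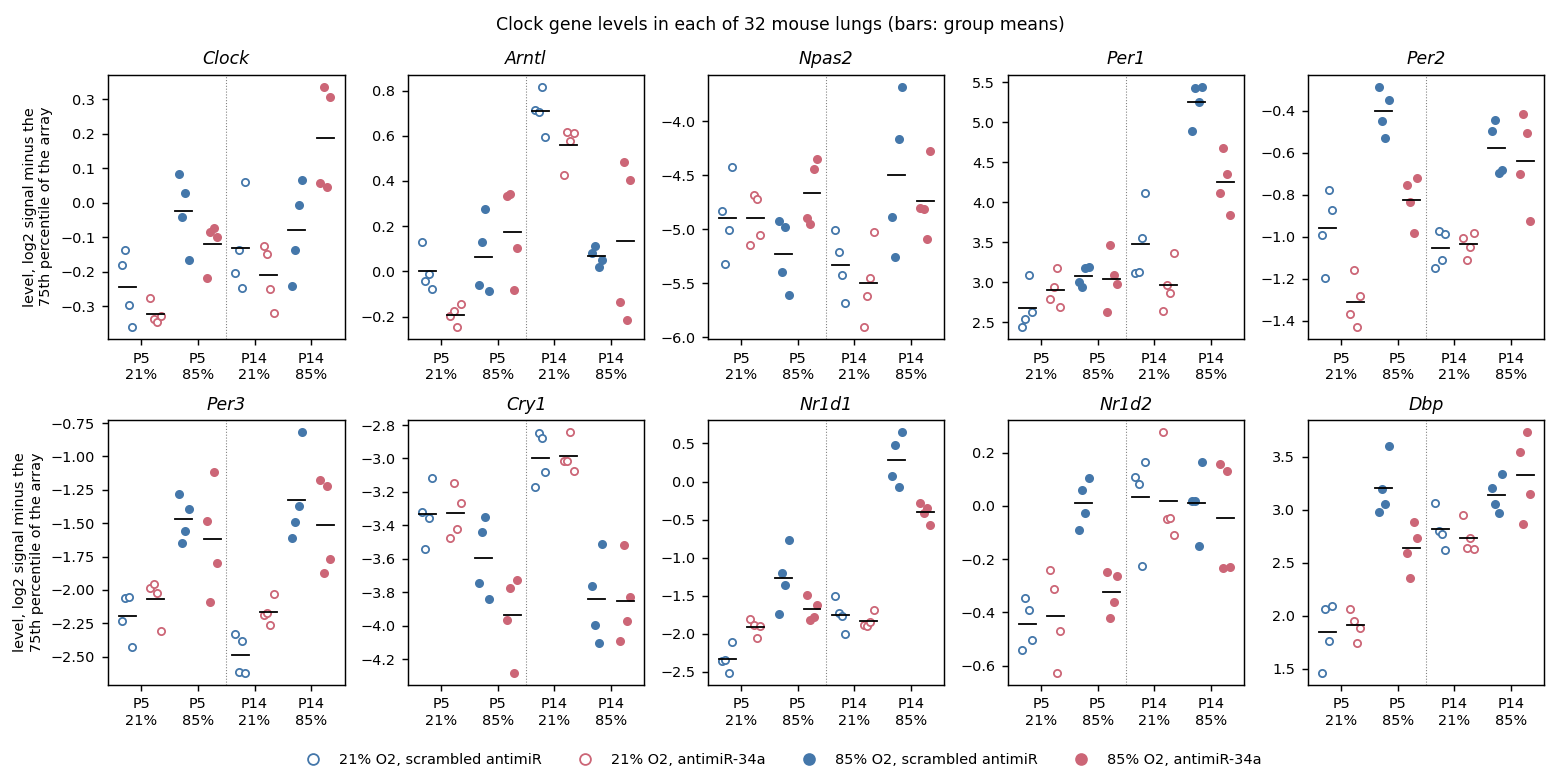
Level of each clock gene (y axis, log2 scale, 0 at the 75th percentile of each array) in every mouse, by age and oxygen level (x axis); open points are 21% O2, filled points 85% O2, blue scrambled antimiR, red antimiR-34a, and bars are means of 4 mice. Nr1d1 and Per1 reach their highest group mean in scrambled antimiR mice at 85% O2 and P14 (0.28 and 5.25), and Arntl its highest at 21% O2 and P14 (0.71).

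Across the 8 groups the highest and lowest group means were 6.10-fold apart for Nr1d1 and 5.95-fold apart for Per1, the widest of the 10, and 1.39-fold apart for Nr1d2, the narrowest. The others spanned 2.79-fold (Dbp), 2.24-fold (Per3), 2.01-fold (Npas2), 1.93-fold (Cry1), 1.87-fold (Per2), 1.86-fold (Arntl) and 1.42-fold (Clock). For Nr1d1 and Per1 the order began with the 2 hyperoxic groups at P14, scrambled antimiR first, and ended with normoxic scrambled antimiR mice at P5. Neighbours in these orders mostly overlapped. In Nr1d1 the hyperoxic groups at P14 were separate from each other and from the next. The groups from hyperoxic scrambled antimiR mice at P5 down to normoxic antimiR-34a mice at P5 overlapped from one to the next, and the last group was separate. In Per1 only the first group was separate from its neighbour. In Arntl the normoxic groups at P14 came first and overlapped only with hyperoxic antimiR-34a mice at P14 among the rest, and in Dbp the normoxic groups at P5 came last and were separate from all above.

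Among scrambled antimiR mice at P5, 6 of the 10 genes were higher in hyperoxia and none was lower. Dbp was 2.57-fold higher and Nr1d1 2.09-fold higher, Per3, Per2 and Nr1d2 rose by 1.37- to 1.65-fold, and Clock rose by 1.16-fold. Of all probes tested, 43.9% passed in this comparison, 17.5% as higher and 26.4% as lower. The median change of the 10 genes was 0.43 on the log2 scale against -0.07 over all probes. Among all called probes 39.9% were higher, or 50.6% after quantile normalization.

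Dbp, the output factor, was read at 1.46, 2.06, 1.76 and 2.09 in the 4 normoxic scrambled antimiR mice at P5 and at 2.98, 3.19, 3.06 and 3.60 in the hyperoxic ones. Every hyperoxic mouse lay above every normoxic mouse, by a gap larger than the spread within either group. The difference was 1.36 ± 0.16 (log2, SE; limma adjusted p = 1.57e-05), and a second Dbp probe gave 0.99 ± 0.14 (limma adjusted p = 8.26e-05). Nr1d1, the repressor of Arntl, was at -2.36, -2.34, -2.51 and -2.11 in normoxia and at -1.73, -1.20, -1.36 and -0.76 in hyperoxia. These groups did not overlap either, and the hyperoxic mice were the more spread out (SD 0.40 against 0.17). The difference was 1.07 ± 0.16 (limma adjusted p = 0.00011).

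Nr1d2, the second of the pair of receptors, rose from -0.54, -0.34, -0.39 and -0.50 to -0.09, 0.06, -0.03 and 0.10. The change was smaller than that of Nr1d1, 0.46 ± 0.08 (limma adjusted p = 0.000609), with no overlap. Of the Period genes, whose proteins form the repressor arm, Per2 rose from -0.99, -1.19, -0.78 and -0.87 to -0.29, -0.45, -0.53 and -0.35 (0.56 ± 0.10, limma adjusted p = 0.000355). Per3 rose from -2.24, -2.06, -2.05 and -2.43 to -1.28, -1.65, -1.56 and -1.39 (0.72 ± 0.17, limma adjusted p = 0.00357). Neither overlapped. Per1 differed by 0.40 ± 0.17 and did not pass (limma adjusted p = 0.0679).

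The activators moved less. Clock rose by 0.22 ± 0.07 (limma adjusted p = 0.016), but its groups overlapped and the call was lost without replicate 4 of the normoxic group, the array that stood apart by 5.58 in skeletal muscle genes, as well as after normexp background correction. Arntl was at 0.13, -0.04, -0.01 and -0.08 in normoxia and -0.06, 0.13, 0.28 and -0.09 in hyperoxia, a difference of 0.06 with a 95% interval of -0.15 to 0.28. Npas2 differed by -0.33 ± 0.21 and Cry1, a repressor, by -0.26 ± 0.14, and neither passed.

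In antimiR-34a mice at P5, hyperoxia also gave 6 calls, 5 higher and 1 lower, where 46.6% of all probes passed (17.2% as higher and 29.5% as lower). Dbp was at 2.06, 1.95, 1.74 and 1.89 in normoxia and at 2.59, 2.36, 2.88 and 2.73 in hyperoxia. The groups were separate, with a difference of 0.73 ± 0.16 (limma adjusted p = 0.00202). Per2 rose by 0.49 ± 0.10, Clock by 0.20 ± 0.07 and Per3 by 0.45 ± 0.17, the last with overlapping groups and an adjusted p of 0.0443 in limma that was lost without any of 6 single mice (replicates 1 to 4 in normoxia, 1 and 3 in hyperoxia). Without hyperoxic replicate 3, an array that stood apart in brightness, the Per3 difference was 0.28. Clock, too, was no longer called without hyperoxic replicate 2 or 4. Arntl rose here by 0.36 ± 0.10 (limma adjusted p = 0.00844), from -0.20, -0.18, -0.25 and -0.14 to 0.33, 0.34, -0.08 and 0.10, without overlap. This call was lost with the t-test named in the methods of the study. Cry1 fell by 0.61 on the log2 scale (SE 0.14, limma adjusted p = 0.00284), but its difference was -0.32 after normexp background correction and -0.39 after quantile normalization, where the call was lost. Nr1d1 differed by 0.23 (95% interval -0.11 to 0.57) and Nr1d2 by 0.09 (-0.09 to 0.27).

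Whether the oxygen effect differed between the antimiRs was tested as an interaction, and no clock gene passed at P5 by limma (0 of 10, against 0.0556% of all probes), while 3 had an unadjusted p under 0.05, as did 10.9% of all probes. The largest of these was Nr1d1, whose oxygen effect was smaller under antimiR-34a by 0.84 ± 0.22 (limma adjusted p = 0.228). For Nr1d2 the difference of effects was -0.37 ± 0.12 and for Dbp -0.63 ± 0.23, with limma adjusted p of 0.297 and 0.356.

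**Figure D2:**
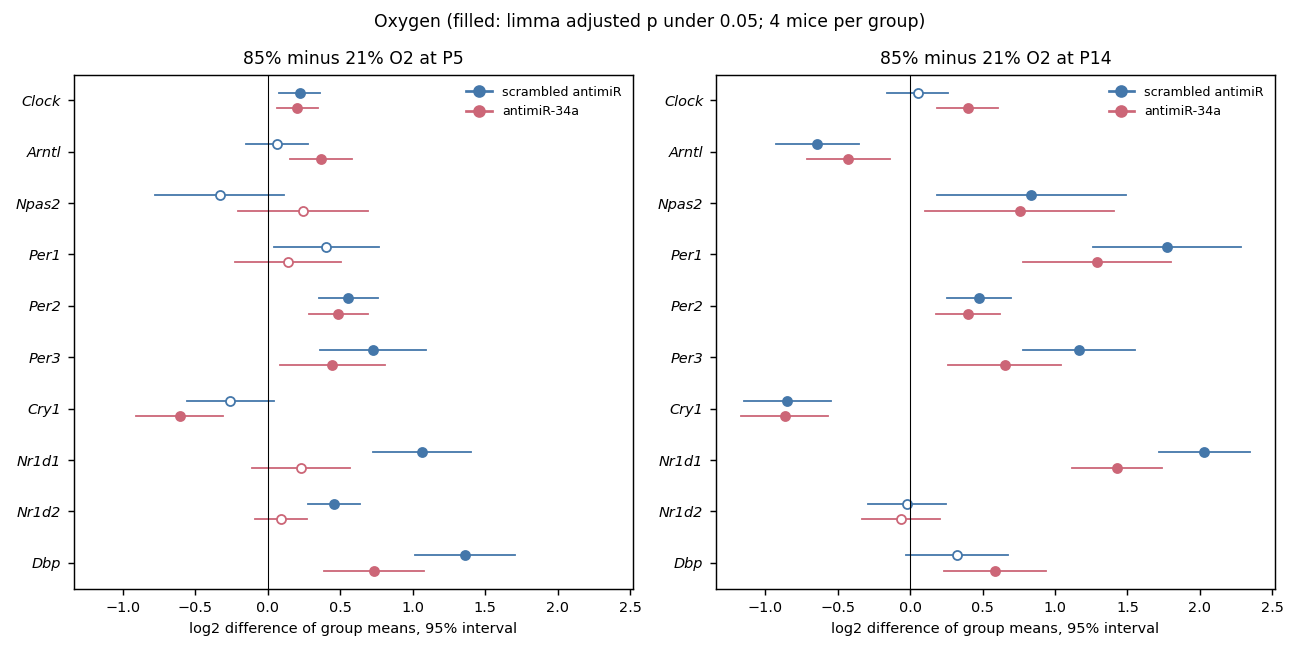
Difference between 85% and 21% O2 (x axis, log2, with 95% intervals) for each clock gene (y axis) at P5 and P14 under each antimiR, 4 mice per group; filled points passed at a limma adjusted p under 0.05. Dbp has the largest difference at P5 (1.36 in scrambled antimiR mice), Nr1d1 and Per1 at P14 (2.03 and 1.77), and at P14 Arntl and Cry1 lie below 0 under both antimiRs.

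At P14 the pattern was different. In scrambled antimiR mice 7 of the 10 genes passed, 5 higher and 2 lower in hyperoxia, where 60.8% of all probes passed (28.4% as higher and 32.4% as lower). Of those called probes 46.7% were higher, or 62.8% after normexp background correction. Nr1d1 was 4.08-fold higher and Per1 3.41-fold higher, while Cry1 and Arntl were 1.80-fold and 1.56-fold lower. The median of the 10 changes was 0.40 against -0.06 over all probes.

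Nr1d1 stood at -1.51, -1.72, -1.76 and -2.00 in normoxia and at 0.08, 0.47, -0.08 and 0.65 in hyperoxia, with more than 1 log2 unit between the groups. The difference was 2.03 ± 0.15 (limma adjusted p = 1.01e-07). Per1, the acutely inducible Period gene, stood at 3.12, 3.13, 3.55 and 4.11 in normoxia and at 4.89, 5.42, 5.25 and 5.44 in hyperoxia. All 4 hyperoxic mice were above all normoxic ones, and the difference was 1.77 ± 0.24 (limma adjusted p = 2.59e-05). Per3 rose by 1.16 ± 0.18, from -2.33, -2.62, -2.38 and -2.62 to -1.61, -1.49, -1.37 and -0.82, again without overlap (limma adjusted p = 9.03e-05). Per2 rose by 0.48 ± 0.10 (limma adjusted p = 0.00115), and its groups did not overlap.

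Arntl, the obligate partner of CLOCK and NPAS2 and the target of the NR1D receptors, was at 0.72, 0.70, 0.82 and 0.59 in normoxia and at 0.08, 0.11, 0.02 and 0.05 in hyperoxia. The groups were far apart and each was narrow, and Arntl fell by 0.64 on the log2 scale (SE 0.13, limma adjusted p = 0.000956). Cry1 was at -3.17, -2.85, -2.88 and -3.08 in normoxia and at -3.76, -3.99, -4.10 and -3.51 in hyperoxia. It fell by 0.85 (SE 0.14, limma adjusted p = 0.000151), without overlap, and after normexp background correction the difference was -0.38. Npas2, a dim probe with the widest spread of the 10, was at -5.01, -5.21, -5.43 and -5.68 in normoxia and at -4.89, -5.26, -4.17 and -3.68 in hyperoxia. The groups overlapped, and the call (0.84 ± 0.30, limma adjusted p = 0.0283) was lost without any of 4 single mice, replicates 3 and 4 of either group. Its size also moved with the processing, to 0.52 after normexp background correction and 1.36 after quantile normalization. Dbp differed by 0.33 (95% interval -0.03 to 0.68, limma adjusted p = 0.1), Nr1d2 by -0.02 (-0.29 to 0.25) and Clock by 0.05 (-0.16 to 0.26).

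In antimiR-34a mice at P14, 9 of the 10 genes passed, 7 higher and 2 lower, where 65.6% of all probes passed (27.8% as higher and 37.8% as lower). Of those called probes 42.4% were higher, or 55.3% after quantile normalization. Nr1d1 rose from -1.88, -1.90, -1.84 and -1.69 to -0.28, -0.41, -0.34 and -0.57 (1.43 ± 0.15, limma adjusted p = 2.15e-06). Per1 rose from 2.64, 2.97, 2.87 and 3.37 to 4.12, 4.68, 4.36 and 3.84 (1.29 ± 0.24, limma adjusted p = 0.000314). Both sets of groups were separate. Per3 (0.65 ± 0.18), Per2 (0.40 ± 0.10), Clock (0.40 ± 0.10) and Dbp (0.59 ± 0.16) rose as well, and so did Npas2 (0.76 ± 0.30, limma adjusted p = 0.0408), whose call was lost without any of 6 single mice (replicates 1, 2 and 4 in hyperoxia and 1 to 3 in normoxia), and whose difference was 0.39 after normexp background correction, 1.74 after quantile normalization and 0.47 without the arrays that stood apart. Cry1 fell by 0.86 (SE 0.14, limma adjusted p = 0.000106), with -0.36 both after normexp background correction and after quantile normalization, where the call was lost. Arntl fell by 0.43 (SE 0.13, limma adjusted p = 0.0122) with overlapping groups. The Arntl call was lost with the t-test named in the methods of the study and with a fit of those groups alone. Nr1d2 differed by -0.06 (95% interval -0.33 to 0.20). The oxygen by antimiR interaction gave 0 of 10 calls by limma at P14, against 0.0884% of all probes, and 2 unadjusted p under 0.05, against 15.0% of all probes: Nr1d1 (-0.60 ± 0.21, limma adjusted p = 0.227) and Clock (0.34 ± 0.14, limma adjusted p = 0.28).

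Markers of some other tissues were separate between the oxygen levels, while others overlapped, and none of these differences was tested. At P14 the 4 adipocyte markers were all above background in normoxia and only 2 of them in hyperoxic scrambled antimiR mice. Their summed level, on the log2 scale, ranged over 0.78 to 4.81 in normoxic scrambled antimiR mice and over -3.69 to -3.43 in hyperoxic ones. In antimiR-34a mice they ranged over 0.64 to 5.27 in normoxia and over -3.97 to 0.50 in hyperoxia. The summed level of 5 skeletal muscle markers ranged over 1.08 to 2.38 in normoxic and 0.17 to 0.74 in hyperoxic scrambled antimiR mice, and that of 4 thymus markers over 0.33 to 0.54 and -0.37 to 0.50. In antimiR-34a mice the ranges were 0.78 to 2.04 and -0.13 to 1.31 for muscle and 0.21 to 1.00 and -0.35 to 0.21 for thymus. The 4 markers of atrial heart muscle ranged over 4.82 to 5.70 in normoxic and 2.61 to 4.24 in hyperoxic scrambled antimiR mice, and over 3.41 to 6.73 and 1.82 to 4.82 in antimiR-34a mice. The 4 red blood cell markers were at 7.90 or higher in normoxic and between 6.92 and 8.20 in hyperoxic scrambled antimiR mice, and ranged over 8.47 to 9.34 and 6.93 to 9.53 in antimiR-34a mice. At P5 muscle markers ranged over 0.74 to 6.35 in normoxic and -0.27 to 0.23 in hyperoxic scrambled antimiR mice, and atrial markers over 4.04 to 6.52 and 1.91 to 4.00. In antimiR-34a mice at P5 the ranges were 0.72 to 0.82 and -0.53 to 0.24 for muscle and 4.19 to 4.96 and 2.77 to 4.03 for atrial markers. Adipocyte, thymus and red blood cell markers overlapped between the oxygen levels at P5 in scrambled antimiR mice, at -4.16 to -2.34 against -4.67 to -3.96, -0.46 to -0.14 against -0.43 to -0.18 and 8.27 to 8.82 against 7.62 to 8.45, and they also overlapped in antimiR-34a mice. The part of these tissues in the differences was not tested. Without the 6 arrays that stood apart, the calls lost for oxygen were those of Npas2 at P14 under both antimiRs and of Per3 at P5 in antimiR-34a mice.

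The oxygen effect of several genes was not the same at the 2 ages. In scrambled antimiR mice the oxygen effect differed between P14 and P5 for 7 of 10 genes (oxygen by age interaction, limma), where 40.8% of all probes passed (23.0% as higher and 17.9% as lower). It was larger at P14 for Per1 (by 1.37 ± 0.30), Npas2 (by 1.17 ± 0.38) and Nr1d1 (by 0.96 ± 0.22). For Dbp the difference of effects was -1.04 ± 0.24, for Arntl -0.70 ± 0.17, for Cry1 -0.59 ± 0.20 and for Nr1d2 -0.48 ± 0.15. The Cry1 value was no longer called after quantile normalization, after normexp background correction (-0.26) or without any of 3 single mice (normoxic P5 replicate 2, and replicate 3 of either hyperoxic group), and those of Npas2 and Nr1d2 were not called without the arrays that stood apart. The Npas2 value was 0.63 after normexp background correction. Of all called probes 56.3% were higher, or 67.6% after normexp background correction. In antimiR-34a mice 3 genes passed, where 43.0% of all probes did (22.3% as higher and 20.7% as lower): Nr1d1 (1.20 ± 0.22), Per1 (1.15 ± 0.30) and Arntl (-0.79 ± 0.17). Of all called probes 51.9% were higher there, or 62.3% after normexp background correction. For Per2, which did not pass, the 95% intervals of the difference were -0.37 to 0.21 in scrambled antimiR and -0.37 to 0.20 in antimiR-34a mice.

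With normal development, from P5 to P14 in normoxia, 5 genes rose in scrambled antimiR mice and none fell, where 27.8% of all probes passed as higher and 23.5% as lower. After quantile normalization the shares were 23.7% and 29.0%. The genes were Dbp (0.97 ± 0.17), Per1 (0.80 ± 0.21), Arntl (0.71 ± 0.12), Nr1d1 (0.58 ± 0.16) and Nr1d2 (0.48 ± 0.11). Arntl, for one, went from between -0.08 and 0.13 to between 0.59 and 0.82. In antimiR-34a mice 5 genes rose as well, where 29.8% of all probes passed as higher: Dbp (0.83 ± 0.17), Arntl (0.75 ± 0.12), Nr1d2 (0.43 ± 0.11), Cry1 (0.34 ± 0.14) and Per2 (0.27 ± 0.10). The last 2 were both lost without replicate 3 of the P5 group, which left 3 calls, and Cry1 was lost also without any of 5 other single mice (replicates 1 and 4 at P5 and 1 to 3 at P14) and after quantile normalization, where the difference was 0.10. The Nr1d2 call was lost on the brighter probe annotated to another chromosome, where the difference was 0.17. Of all called probes 51.4% were higher, or 40.7% after quantile normalization. Per1 and Nr1d1 did not pass there, with differences of 0.06 (95% interval -0.38 to 0.50) and 0.08 (-0.24 to 0.40). Other tissue markers moved with age as well. In normoxic scrambled antimiR mice the summed adipocyte level went from between -4.16 and -2.34 at P5 to between 0.78 and 4.81 at P14, and that of thymus from between -0.46 and -0.14 to between 0.33 and 0.54. In normoxic antimiR-34a mice adipocyte markers went from between -4.13 and -3.70 to between 0.64 and 5.27, and thymus from between -0.20 and 0.04 to between 0.21 and 1.00. The part of these markers in the age differences was not tested.

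In hyperoxia the calls for age were as follows. In scrambled antimiR mice Per1 was higher at P14 than at P5 by 2.17 ± 0.21, Nr1d1 by 1.54 ± 0.16 and Npas2 by 0.73 ± 0.27, and these were the 3 calls, where 26.0% of all probes passed as higher. The Npas2 call was lost without any of 4 single mice (replicates 2 and 4 at P5, 3 and 4 at P14), and the difference was 0.46 without the last of these. Of all called probes 61.6% were higher, or 73.0% after normexp background correction and 47.6% after quantile normalization. Arntl, which was higher at P14 in normoxia, differed by 0.00 (95% interval -0.24 to 0.25), and Dbp by -0.07 (-0.41 to 0.27). In antimiR-34a mice 5 genes were higher at P14, where 19.5% of all probes passed as higher: Nr1d1 (1.28 ± 0.16), Per1 (1.21 ± 0.21), Dbp (0.68 ± 0.17), Clock (0.31 ± 0.08) and Nr1d2 (0.28 ± 0.11), the last lost without any of 5 single mice (replicates 2 to 4 at P5, 1 and 3 at P14). Tissue markers differed with age in hyperoxia too. The summed level of the 6 lung markers went from between 9.47 and 9.89 at P5 to between 10.44 and 10.74 at P14 in scrambled antimiR mice, and from between 9.64 and 10.17 to between 10.40 and 10.48 in antimiR-34a mice, and it was also higher at P14 without overlap in normoxia. Adipocyte markers went from between -4.67 and -3.96 to between -3.69 and -3.43 in scrambled antimiR mice, and overlapped between the ages in antimiR-34a mice. Muscle, atrial, thymus and red blood cell markers overlapped under both antimiRs, and the part of the markers in these differences was not tested. The comparisons of age and those of oxygen share groups and are not independent of each other.

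For antimiR-34a against the scrambled antimiR, few clock genes passed. In normoxia none passed by limma at P5, where 0.136% of all probes did, and none at P14, where 0% did. Unadjusted p under 0.05 were found for 2 genes at P5, against 17.4% of all probes, and for 1 gene at P14, against 10.5%. At P5 these were Per2 (-0.35 ± 0.10) and Nr1d1 (0.42 ± 0.16), with limma adjusted p of 0.126 and 0.219, and at P14 Per1 (-0.52 ± 0.24, limma adjusted p = 0.473). In hyperoxia at P5 none passed by limma either, where 0.0639% of all probes did, but 6 had an unadjusted p under 0.05, against 13.0% of all probes. The smallest were those of Per2, Nr1d2 and Dbp. Dbp was 0.57 ± 0.16 lower in antimiR-34a mice, at 2.59, 2.36, 2.88 and 2.73 against 2.98, 3.19, 3.06 and 3.60, with a limma adjusted p of 0.19. Per2 was lower by 0.42 ± 0.10 and Nr1d2 by 0.34 ± 0.08, with limma adjusted p of 0.13 and 0.154. The Per2 and Nr1d2 differences passed when no filter on dim probes was applied, which gave 2 calls. The methods' t-test gave 0 calls in each of these 3 comparisons.

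In hyperoxia at P14, 2 genes passed, both lower in antimiR-34a mice, where 2.66% of all probes passed (1.12% as higher and 1.54% as lower). Per1 stood at 4.12, 4.68, 4.36 and 3.84 in antimiR-34a mice, all below the 4.89, 5.42, 5.25 and 5.44 of scrambled antimiR mice, a 2.00-fold difference (SE 0.24, 95% interval -1.51 to -0.49 on the log2 scale, limma adjusted p = 0.0406). Nr1d1 stood at -0.28, -0.41, -0.34 and -0.57 against 0.08, 0.47, -0.08 and 0.65, a 1.60-fold difference (-0.68 ± 0.15, limma adjusted p = 0.0272). In both genes every antimiR-34a mouse was below every scrambled antimiR mouse. The direction held under all alternatives run, but neither call was firm, and the Per1 difference was -0.36 on the mean over its 2 probes. The second Per1 probe was not used alone among these alternatives, and its group means went the other way. Both were lost after quantile normalization, and the count fell to 0 without the arrays that stood apart, without scrambled antimiR replicate 2 or 4, or without antimiR-34a replicate 4. This last array was above the median of its group in adipocyte markers by 3.30, in red blood cell markers by 2.18, in atrial markers by 2.11 and in skeletal muscle markers by 1.39 (mean log2 levels), and their part in these calls was not tested.

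**Figure D3:**
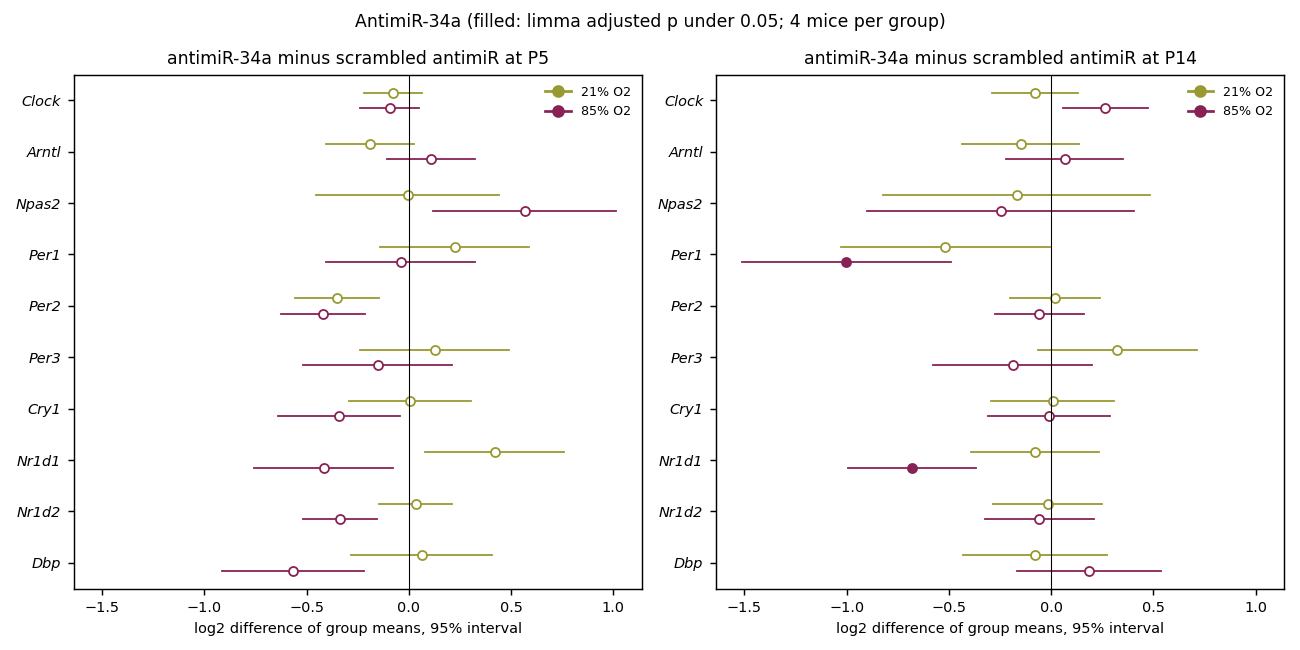
Difference between antimiR-34a and scrambled antimiR (x axis, log2, with 95% intervals) for each clock gene (y axis) at P5 and P14 in each oxygen level, 4 mice per group; filled points passed at a limma adjusted p under 0.05. The 2 filled points are Per1 (2.00-fold lower) and Nr1d1 (1.60-fold lower) in 85% O2 at P14.

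Nr1d1 had a single probe, to which the array annotation gives no mm9 position, so its place could not be checked in the way used for Nr1d2. A second probe was present for Per1, Nr1d2 and Dbp. The second Dbp probe gave the same calls as the first in the 4 oxygen comparisons, with differences of 0.99 and 0.71 at P5 and 0.29 and 0.50 at P14 in scrambled antimiR and antimiR-34a mice. The second Per1 probe, near background, reads another cDNA record at chr11:68919895-68919954 (mm9, plus strand), while the probe used lies at chr11:68923364-68923423. It was well above background on 29 of 32 arrays, and the other 3 were all hyperoxic at P5, 1 of 4 in scrambled antimiR and 2 of 4 in antimiR-34a mice, so its P5 differences rest partly on dim spots. At P5 it was lower in hyperoxia, by -0.80 ± 0.13 and -0.88 ± 0.13 under the 2 antimiRs (limma adjusted p = 0.000237 and 9.61e-05). In scrambled antimiR mice at P14 it was lower too, by -0.39 ± 0.14, which passed (limma adjusted p = 0.0306). In each of these it went opposite to the probe used. In antimiR-34a mice at P14 its difference was 0.16 ± 0.14, in the direction of the probe used, and did not pass. Between the antimiRs in hyperoxia at P14 its mean was -4.89 in antimiR-34a and -5.18 in scrambled antimiR mice, opposite to the probe used. With the mean over both probes, the Per1 oxygen difference at P14 was 0.69 in scrambled antimiR and 0.72 in antimiR-34a mice, the age difference in scrambled antimiR mice 0.46 in normoxia and 1.36 in hyperoxia, and the difference of effects between ages there 0.89, each smaller than on the probe used. For Nr1d2 the brighter probe is placed by the array annotation on chromosome 19, whereas RefSeq has the gene on chromosome 14, and the probe on chromosome 14 was used. The brighter probe gave 0.31 ± 0.07 and -0.34 ± 0.07 for oxygen at P5 in scrambled antimiR and antimiR-34a mice, and the difference of these effects passed (-0.64 ± 0.10, limma adjusted p = 0.021). Which transcript it reads was not tested.

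The spread between mice of a group differed from gene to gene. The pooled SD within groups was 0.11 for Clock and 0.39 for Npas2, the lowest and the highest of the 10, and their median of 0.21 compares with 0.18 over 35277 probes. Per1 (0.31), Per3 (0.26), Dbp (0.24), Nr1d1 (0.22) and Cry1 (0.20) were above that median, and Arntl (0.17), Nr1d2 (0.15) and Per2 (0.14) below it.

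Across the 32 mice, deviations from the group mean were compared for all 45 pairs of clock genes, with mice permuted within groups and Benjamini-Hochberg adjustment over the pairs. By Pearson's r, 3 pairs had an adjusted p under 0.05 in the permutation test, and all 3 involve Dbp. Nr1d2 and Dbp rose and fell together (r = 0.65, permutation p = 0.00045, adjusted 0.0202; rho = 0.67, permutation p = 6e-04, adjusted 0.027). Nr1d1 and Dbp did so too (r = 0.56, permutation p = 0.00223, adjusted 0.0376; rho = 0.59, permutation p = 0.00253, adjusted 0.0569). Arntl and Dbp ran in opposite directions (r = -0.70, permutation p = 0.00251, adjusted 0.0376; rho = -0.59, permutation p = 0.0106, adjusted 0.131).

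Without the 2 mice farthest from the median of the first gene, r was 0.68 for Nr1d2 and Dbp, 0.45 for Nr1d1 and Dbp and -0.57 for Arntl and Dbp, and the adjusted permutation p of the last 2 became 0.148 and 0.146, so those relations rest in part on those mice. Within P5 the 3 values of r were 0.58, 0.66 and -0.63, and within P14 they were 0.73, 0.45 and -0.76, but with 16 mice no pair passed at either age. Without the 6 arrays that stood apart they were 0.80, 0.56 and -0.73 over 26 mice. Of the pairs that did not pass, r was largest in size for Arntl and Per3 (r = -0.58, rho = -0.49, adjusted permutation p = 0.156 and 0.189) and Arntl and Cry1 (r = 0.57, rho = 0.51, adjusted permutation p = 0.0684 and 0.131). Both were slightly larger in size than the r of Nr1d1 and Dbp over all mice. Arntl and Clock, which act as a pair, had r = 0.26 (rho = 0.14, adjusted permutation p = 0.581 and 0.78).

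**Figure D4:**
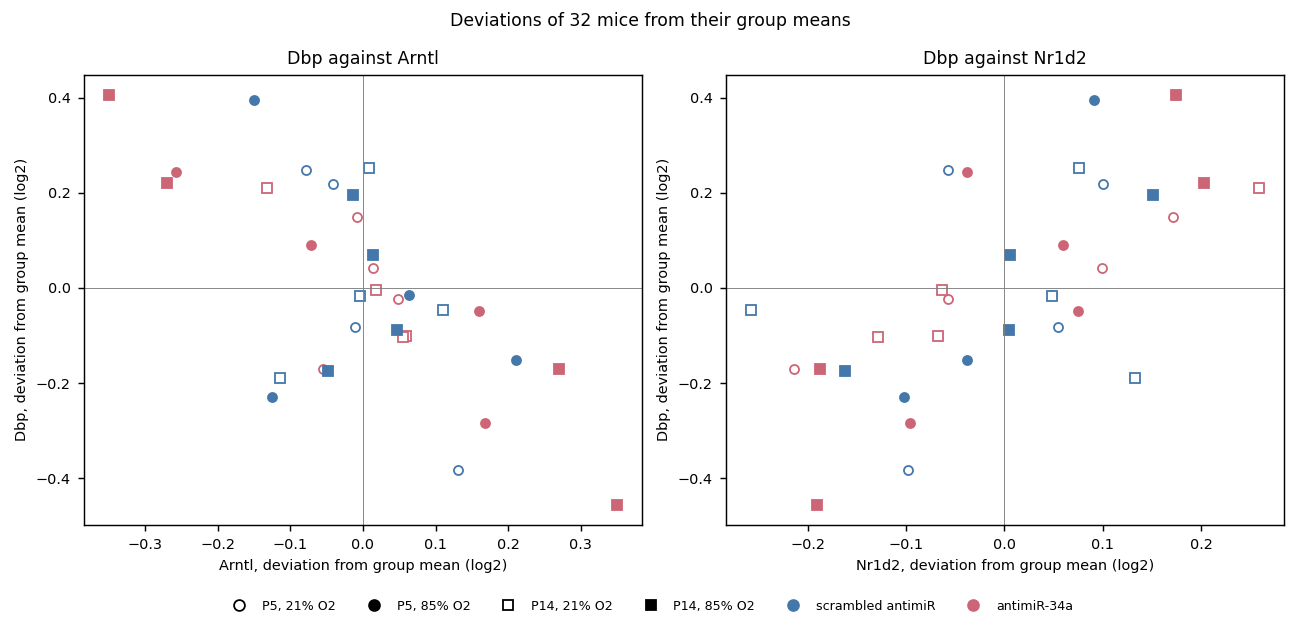
Deviation of Dbp from its group mean (y axis, log2) against that of Arntl (left) and of Nr1d2 (right; x axes, log2) in 32 mice; circles are P5, squares P14, open 21% O2, filled 85% O2, blue scrambled antimiR, red antimiR-34a. Dbp falls as Arntl rises (r = -0.70) and rises with Nr1d2 (r = 0.65), and the 4 red filled squares lie at the ends of the Arntl axis.

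For Arntl the largest of these deviations were in the hyperoxic antimiR-34a mice at P14. There Arntl was at -0.14, 0.48, -0.22 and 0.40 in replicates 1 to 4, Dbp at 3.55, 2.87, 3.73 and 3.15, and Nr1d2 at 0.16, -0.23, 0.13 and -0.23. Replicates 1 and 3 held the low Arntl, the high Dbp and the high Nr1d2, and replicates 2 and 4 the reverse. Per3 followed Dbp, at -1.18, -1.87, -1.22 and -1.77. Nr1d1 was at -0.28, -0.41, -0.34 and -0.57, with replicates 1 and 3 again above 2 and 4 but closer together. In Per1 (4.12, 4.68, 4.36 and 3.84) replicates 2 and 4 were the highest and the lowest, so it did not share this split. The SD of Arntl was 0.36 in this group and 0.04 to 0.20 in the other groups. Replicate 4 was the array of this group that stood apart in skeletal muscle genes, by 1.39, and it lay farther from the median of the group in adipocyte (3.30), red blood cell (2.18) and atrial markers (2.11). Their part in this split was not tested.

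Over 16405 other genes named in RefSeq, those whose deviations were most like those of Arntl were Lrrc73 (r = 0.83), Nfil3 (0.76), Cct8 (0.76), Tpm2 (0.75) and Slc30a7 (0.73). Nfil3, the repressor that competes with DBP at D-boxes, was the second of them. At the other end stood Acvr2b (-0.73), A230057D06Rik (-0.71), Abtb1 (-0.70), Abcc6 (-0.70) and Cxcl9 (-0.70), and Dbp itself was 6th from the lowest (-0.70). In the hyperoxic antimiR-34a mice at P14 Nfil3 was at 1.59, 2.39, 1.44 and 1.85, in the order of Arntl. For Dbp the highest were Nanos3 (0.72), 4931428F04Rik (0.70), Ngp (0.70), Slc25a27 (0.69) and Zfr2 (0.69), and the lowest Utp11l (-0.77), Lman1 (-0.74), Cnksr3 (-0.73), Prosc (-0.72) and Rras2 (-0.72). These are descriptions over 32 mice that share their arrays, with no test.

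Other clock genes were measured as a list of 13, of which 12 had a tested probe. In scrambled antimiR mice hyperoxia raised 5 of them and lowered 2 at P5, with 6 raised and 2 lowered at P14. In antimiR-34a mice it raised 4 and lowered 2 at P5, and raised 6 and lowered 2 at P14. The median change of the list was 0.14 and 0.34 on the log2 scale in scrambled antimiR mice at P5 and P14, and -0.04 and 0.26 in antimiR-34a mice. Over all probes the medians were -0.07, -0.06, -0.09 and -0.11 in the same order, and 43.9%, 60.8%, 46.6% and 65.6% of all probes passed, so the share of the list that passed was near that of all probes in most of these comparisons. Bhlhe40 (DEC1), a repressor at E-boxes that is also induced by low oxygen and other signals, was higher in all 4, by 1.45 and 2.34 in scrambled antimiR mice and by 1.15 and 2.05 in antimiR-34a mice at P5 and P14. Arntl2, a relative of Arntl, differed by 0.06 and -0.01 at P5 and was higher by 0.93 and 1.00 at P14, where Arntl was lower. Cry2 was higher at P14 by 0.39 and 0.34. Timeless was lower in 3 of the 4.

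The clock output list held 5 genes, all measured, of which 3 passed at P5 under each antimiR, and 3 and 4 at P14, against 43.9%, 46.6%, 60.8% and 65.6% of all probes. Its median change was -0.09 and 0.16 at P5 and 0.25 and 0.27 at P14. Of the PAR bZIP factors related to DBP, Tef was higher in hyperoxia at P5 (0.52 and 0.29) and in antimiR-34a mice at P14 (0.27), while Hlf was lower in all 4 comparisons, by -1.07 and -0.93 at P5 and -1.69 and -2.04 at P14 (limma adjusted p from 1.86e-06 to 0.000123). Thus 2 relatives of Dbp went opposite ways. Usp2, a deubiquitinase under clock control, was higher at P14 (0.96 and 1.12), Wee1, a cell cycle kinase, was lower at P5 (-0.33 and -0.34) and higher at P14 (0.46 and 0.38), and Nfil3 passed in none of the 4.

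Per1 can be induced by outside signals, so immediate early genes and glucocorticoid-responsive genes were listed beside it. Of 7 immediate early genes, 5 were higher in hyperoxia in scrambled antimiR mice at P5 and 5 at P14, and 2 and 7 in antimiR-34a mice, with none lower. Of all probes 17.5%, 28.4%, 17.2% and 27.8% passed as higher in these 4 comparisons, and the median change of the list was 0.92, 0.77 and 0.35 in the first 3, with changes from 0.64 (Jun) to 2.05 (Fosb) in the last. The largest changes in scrambled antimiR mice were those of Atf3 (2.13 and 2.04) and Fosb (1.53 and 1.48). Fos was higher at P5 (0.92) but differed by -0.02 at P14, and in antimiR-34a mice at P14 it was higher by 1.80. Between the antimiRs in hyperoxia at P14, where Per1 was lower in antimiR-34a mice, 1 of the 7 passed, Egr1, and it was higher (1.26, limma adjusted p = 0.042), where 1.12% of all probes passed as higher.

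Of 5 glucocorticoid-responsive genes, hyperoxia raised 2 and lowered 1 in scrambled antimiR mice at P5 and raised 3 and lowered 1 at P14. In antimiR-34a mice it lowered 1 at P5 and raised 1 at P14. Of all probes 43.9% and 60.8% passed in scrambled antimiR mice at P5 and P14 and 46.6% and 65.6% in antimiR-34a mice, and the median change of the list was 0.33, 0.80, -0.17 and 0.46 in that order. Klf9, itself a modulator of the clock, was higher by 0.44 at P5 and 0.85 at P14 in scrambled antimiR mice, Sgk1 by 0.33 and 0.49, and Zbtb16 by 1.76 at P14. Tsc22d3, a glucocorticoid target also known as Gilz, was the one that was lower at P14 (-0.54, limma adjusted p = 0.00141). Fkbp5 was lower at P5 (-0.32) and did not pass at P14 (0.80, limma adjusted p = 0.107). In hyperoxia at P14 Sgk1 was lower in antimiR-34a than in scrambled antimiR mice (-0.51, limma adjusted p = 0.0425), where 1.54% of all probes passed as lower, and the other 4 did not pass. The part of such signals in the Per1 differences was not tested.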

How the data were processed

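Total RNA of 32 lungs was hybridised to one-colour arrays. The deposited file of each array gives the intensity of every spot, and per the file headers the processed intensity was corrected for background by Agilent Feature Extraction 10.7.3.1. A table of the authors holds log2 values with the same distribution in every column, which was used only as an alternative. Its scale was log2, and its correlation with the processed signals lay between 0.997 and 1.00 per array.

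The processed intensity was taken as log2, and the 75th percentile of each array was then subtracted. Control spots and spots marked as outliers (0.211%) were left out, none was saturated, and repeated spots were averaged. Testing was limited to probes that met this rule: 1 or more of the fitted groups had the probe well above background on all 4 arrays, which left 35982 of 55681 probes for P5, 38455 for P14 and 39160 for both ages. The comparisons were fitted with limma 3.58.1 (R 4.3.3), 1 mean per group, on the 16 arrays of an age or on all 32 for comparisons of age, and p-values were adjusted over all tested probes. The methods' t-test was an alternative. Arrays have no depth, and their number limits the precision. On simulated data made from the P5 values, limma called 44 of 100 probes changed by 0.5 and 81 of 100 changed by 1 in the oxygen comparison of scrambled antimiR mice (35982 probes), with 4 false calls. At P14 (38455 probes) it called 25 and 69 with 9 false calls, and for age in normoxic scrambled antimiR mice (39160 probes) 35 and 65 with 5 false calls. For antimiR-34a in hyperoxia it called 48 and 80 with 7 false calls at P5, and 26 and 67 with 5 at P14. Every other simulated probe was left unchanged, and probes varied independently. In the real oxygen comparisons of scrambled antimiR mice 43.9% and 60.8% of probes passed at P5 and P14, so these rates need not hold there or for age.

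Each gene was read on its brightest probe, except Nr1d2, whose brightest probe is annotated to another chromosome than the gene. This exception was made after the annotation was seen. The annotation gives no position for the only Nr1d1 probe, so this check could not be made for it. Pairs were tested with 100000 permutations of mice within groups. The members and the lists (other clock genes, clock output genes, glucocorticoid-responsive, temperature-linked and immediate early genes) were chosen with earlier results of these data known. Replicate numbers did not pair the mice, and p-values take each mouse as 1 sample. Gene names are those of the array design, and the likeness search was limited to names that RefSeq (GRCm38.p6) holds as symbols or synonyms. The microRNA arrays and other assays of the study were not analysed here.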

Additional observations from a re-analysis of the deposited data

Results flagged for a closer look

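In 1 of 80 combinations of gene and group, a mouse lay far from the other 3. This was Nr1d2 in normoxic antimiR-34a mice at P14, where replicate 1 was at 0.28 and the others between -0.11 and -0.05, so that its gap took up 0.833 of the range of the group. By chance about 5% of groups would be marked in this way. The same array stood apart in brightness, by 0.58, and its part in the value was not tested.

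The oxygen effect differed between P14 and P5 by a test of the difference itself (limma, oxygen by age interaction) for 10 combinations of gene and antimiR. In scrambled antimiR mice the difference of effects was 1.37 for Per1, 1.17 for Npas2, 0.96 for Nr1d1, -1.04 for Dbp, -0.70 for Arntl, -0.59 for Cry1 and -0.48 for Nr1d2. In antimiR-34a mice it was 1.20 for Nr1d1, 1.15 for Per1 and -0.79 for Arntl. Arntl changed direction between the ages in antimiR-34a mice, from a called rise of 0.36 at P5 to a called fall of 0.43 at P14. Both calls were lost with the methods' t-test, and that at P14 also with a fit of those groups alone. The groups at P14 overlapped. Slides differed with age and with oxygen level, and cannot be told apart from this difference. The same holds for the time of harvest, which was not given.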

How the results depend on the processing

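The 58 called gene values were each recomputed under the alternatives, which gave 1172 recomputed values. None changed direction, and in 108 of the 1172 the call was lost. The second Per1 probe, opposite to the probe used in several comparisons, entered these alternatives only as part of a mean. The count for antimiR-34a in hyperoxia at P14, 2 as reported, became 1 with normexp background correction, 1 with the replicate block, 1 with the mean over the probes of a gene, and 0 with quantile normalization, the authors' processed values, no filter on dim probes, a fit of those groups alone, or the methods' t-test, and 0 without the arrays that stood apart. The count for antimiR-34a in hyperoxia at P5 rose from 0 to 2 with no filter. With the methods' t-test the oxygen count in antimiR-34a mice at P14 fell from 9 to 5 and the age count in hyperoxic antimiR-34a mice from 5 to 2. The oxygen by antimiR count at P5 rose from 0 to 1 with Nr1d2 on its brighter probe, an alternative chosen after seeing the data. The count of pairs, 3, became 0 in P5 mice alone and 0 in P14 mice alone, and 3 with quantile normalization. Without the farthest mice it was 2, of which only Nr1d2 and Dbp was among the 3 reported. The other was Per3 and Cry1 (r = -0.63, adjusted permutation p = 0.00855, against r = -0.46 and 0.212 in all mice). Of values not called as reported, 2 became called in the other direction, both for oxygen in antimiR-34a mice at P5: Per1 (-0.37) on the mean over its probes, and Nr1d2 (-0.34) on its brighter probe. The cause of these changes was not tested.

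Leaving out 1 mouse at a time gave 5 to 7 and 5 to 5 calls for oxygen at P5 in scrambled antimiR and antimiR-34a mice, 6 to 7 and 8 to 9 at P14, and 0 to 2 for antimiR-34a in hyperoxia at P14. For age it gave 5 to 6 and 3 to 6 in normoxia and 2 to 3 and 4 to 6 in hyperoxia, and for the oxygen by age interaction 6 to 7 and 3 to 3. All other counts remained at 0.

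Normexp background correction moved the median change of all probes for oxygen in scrambled antimiR mice at P14 from -0.06 to 0.11, and quantile normalization moved it in antimiR-34a mice at P14 from -0.11 to 0.07. Same-numbered mice of compared groups had correlations of their deviations between -0.35 and 0.50, in no comparison above 0.1 for all 4 pairs, so the numbers do not pair the mice, and the replicate block changed 2 of 160 gene calls.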

Other observations

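Temperature can set the phase of clocks, and genes that respond to it were listed. Of 6 such genes 5 were measured. In hyperoxia 1 was higher in scrambled antimiR mice at P5 (Hspa1a, a heat shock chaperone, 0.58), and 1 higher and 1 lower in antimiR-34a mice. At P14 2 were higher and 2 lower in scrambled antimiR mice, and 1 was higher in antimiR-34a mice. Of all probes 43.9% and 46.6% passed at P5 and 60.8% and 65.6% at P14 in scrambled antimiR and antimiR-34a mice, and the median change of the list was 0.01, 0.18, 0.19 and 0.31 in that order. The cold-inducible RNA-binding proteins Cirbp and Rbm3 went opposite ways at P14 in scrambled antimiR mice (0.56 and -0.53). Between the antimiRs in hyperoxia at P14 they went opposite ways again, with Cirbp lower (-0.85, limma adjusted p = 0.00404) and Rbm3 higher (0.92, limma adjusted p = 0.0251) in antimiR-34a mice, in the same comparison, where 2.66% of all probes passed, in which Per1 and Nr1d1 were lower.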
